A study of Mus musculus with 6 samples.

Results

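Gluconeogenesis, the making of glucose from lactate, alanine, glutamine and glycerol, was examined in the small intestine of mouse embryos through 8 genes: Pcx, Gpt, Pck1, Pck2, Fbp1, Fbp2, G6pc and Slc37a4. The genes were chosen by symbol, among probe sets annotated to exactly 1 gene, and where a gene had several probe sets the brightest over the 6 arrays was selected. Each of these genes had 1 probe set, so brightness decided nothing here, and they make up 8 of the 19938 genes with a value. They were listed with earlier results of these arrays known, among them the falls of Fbp1 and Pck1, and their differences are therefore given as a description. Slc37a4 is a transporter and not an enzyme, and the samples were taken before birth (E18.5), so the word perinatal covers the fetal side only. The study set 3 small intestine samples labelled E-cadherin cKO, a conditional knockout, against 3 control samples labelled wildtype. E-cadherin, encoded by Cdh1, is the main adhesion molecule of epithelial junctions. All 6 were whole tissue at E18.5, measured on Affymetrix Mouse Gene 1.0 arrays. The promoter that drove recombination, the deleted exons, the strain and whether a sample came from 1 animal were not given in the sources used here. The p-values below therefore cover sample-to-sample spread, possibly technical, and no more.

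Gluconeogenesis runs most steps of glycolysis backwards and bypasses the irreversible ones with its own enzymes. Pyruvate carboxylase (Pcx) makes oxaloacetate from pyruvate in mitochondria, phosphoenolpyruvate carboxykinase (Pck1 in the cytosol, Pck2 in mitochondria) turns it into phosphoenolpyruvate, fructose bisphosphatase (Fbp1, Fbp2) removes a phosphate from fructose bisphosphate, and glucose-6-phosphatase (G6pc), fed by the transporter of glucose-6-phosphate into the endoplasmic reticulum (Slc37a4), releases free glucose. Liver and kidney are the main sites, and the small intestine of suckling rodents is known to express the pathway as well.

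Values are the deposited expression values, read as log2, and differences are cKO minus control on that scale, each with limma's standard error (SE). A gene was called where the Benjamini-Hochberg adjusted p of the limma fit over all 19938 genes was below 0.05. Cdh1 averaged 9.0 ± 0.66 in cKO and 9.94 ± 0.18 in control intestine (SD, n = 3 each), a difference of -0.95 that was not called (limma adjusted p = 0.088), and cKO 1, at 9.70, lay closest to the controls. Cdh1 was called lower without cKO 1 (adjusted p = 0.012), with array weights (0.011), median centring (0.0453) or a variance trend (0.0477) and without the dimmer 50% of genes (0.044). The array weights were uneven, at 0.6, 0.27 and 2.98 for cKO 1, 2 and 3 and 1.06, 2.73 and 0.73 for control 1, 2 and 3. The weighted cKO values therefore rest mostly on cKO 3. The level below which 95% of 1227 receptor genes for smell, taste and pheromones fall, 5.79 to 6.25 on cKO arrays and 6.19 to 6.36 on control arrays, is used as the background level. Dim genes read lower on cKO 2 than elsewhere (median shift of the receptor genes -0.37, against -0.06 to 0.09 on the other 5 arrays). Array cKO 3 stood apart in genes of the exocrine pancreas: Ctrb1, a chymotrypsinogen gene, read 5.86, 5.62 and 12.39 on cKO 1, 2 and 3, against 6.18, 6.56 and 7.03 on control 1, 2 and 3.

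The windows directly before the gene start are shown for Fbp1, Pck1 and G6pc, the called genes whose control arrays were spread most, and for Pck2, the gene that did not fall. Sequences are from RefSeq on GRCm38.p6, 250 bases each, on the gene's strand from 5′ to 3′, with matches to 4 motifs in capitals. The motifs were the cAMP response element (CRE) core TGACGT, the HNF1 core GTTAAT, the TATA box TATAAA and the GC box GGGCGG, searched on both strands, and no match overlapped another in these 4 windows.
Fbp1, chr13:62888283-62888532, minus strand: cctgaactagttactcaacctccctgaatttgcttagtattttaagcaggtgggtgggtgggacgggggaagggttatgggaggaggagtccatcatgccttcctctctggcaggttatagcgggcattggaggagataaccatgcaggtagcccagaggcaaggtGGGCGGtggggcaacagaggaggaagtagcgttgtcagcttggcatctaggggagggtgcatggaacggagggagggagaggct
Pck1, chr2:173152823-173153072, plus strand: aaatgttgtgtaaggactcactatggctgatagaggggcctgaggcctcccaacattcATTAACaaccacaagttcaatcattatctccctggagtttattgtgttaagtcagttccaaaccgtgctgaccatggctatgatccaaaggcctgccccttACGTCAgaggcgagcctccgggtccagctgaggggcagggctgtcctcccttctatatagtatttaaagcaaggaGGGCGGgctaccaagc
G6pc, chr11:101367466-101367715, plus strand: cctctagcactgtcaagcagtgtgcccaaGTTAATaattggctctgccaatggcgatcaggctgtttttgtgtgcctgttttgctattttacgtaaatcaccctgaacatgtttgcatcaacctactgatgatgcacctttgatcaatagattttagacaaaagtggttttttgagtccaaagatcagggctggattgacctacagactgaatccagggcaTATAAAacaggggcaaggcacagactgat
Pck2, chr14:55540016-55540265, plus strand: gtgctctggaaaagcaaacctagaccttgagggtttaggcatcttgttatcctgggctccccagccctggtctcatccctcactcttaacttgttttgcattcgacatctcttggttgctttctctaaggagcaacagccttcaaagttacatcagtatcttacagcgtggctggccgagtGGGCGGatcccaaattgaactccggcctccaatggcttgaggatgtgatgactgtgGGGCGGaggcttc
Counting back from the gene start, the Pck1 window held the CRE core at -91 to -86, the HNF1 core at -192 to -187 and a GC box at -16 to -11. The G6pc window held the HNF1 core at -221 to -216 and a TATA box at -29 to -24. Fbp1 had only a GC box, at -84 to -79, and Pck2 had 2 GC boxes. Among all 32851 windows of this table, 6.47% held the CRE core, 6.43% the HNF1 core, 12.4% the TATA box and 32.7% the GC box. The windows of Fbp1, Pck1 and G6pc had none of the 4 motifs in common to all. Of the other members, Slc37a4 held 1 CRE core, whose letters fall in both of its overlapping windows and lie at -61 to -56 from the first of its 3 starts, and the Fbp2 window held none of the motifs. Such matches are letters in a window, not tested sites.

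Fbp1, the fructose bisphosphatase of liver and kidney, fell to background in cKO intestine. It read 5.90, 5.66 and 5.70 on cKO 1, 2 and 3, against 9.66, 10.65 and 11.33 on control 1, 2 and 3. The cKO values lay together at or below the background level of their own arrays, while the controls were spread over 1.67 and all lay far above it, with a gap of 3.76 between the groups. The mean was 5.75 ± 0.13 in cKO and 10.55 ± 0.84 in control (SD, n = 3 each), a difference of -4.79 (SE 0.37, limma adjusted p = 0.00077). With the cKO arrays set at their background level, Fbp1 was at least 22.7-fold lower. Here and below, such a bound compares group means and allows for the background level only, not for the spread between samples. No setting or left-out array ended the call, and leaving out 1 array at a time gave -5.24 to -4.40.

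Fbp2, the muscle-type fructose bisphosphatase, fell by far less. It read 10.39, 10.57 and 10.42 on cKO 1, 2 and 3, against 11.38, 11.38 and 11.49 on control 1, 2 and 3. Both groups were tight, with ranges of 0.18 and 0.11, and did not overlap. The difference was -0.96 (SE 0.11, 95% interval -1.22 to -0.70, limma adjusted p = 0.0024), or 1.94-fold. Within each array, the value of Fbp1 minus that of Fbp2 was -4.49, -4.91 and -4.72 on the cKO arrays and -1.72, -0.73 and -0.16 on the controls, with Fbp1 at or below background on the cKO arrays. With those arrays set at their background level the within-array differences were -4.14, -4.78 and -4.34 in cKO, and the fall of Fbp1 exceeded that of Fbp2 by at least the size of the resulting difference of -3.55 (exact two-sided permutation p = 0.1, the smallest that 3 against 3 allows). Fbp1 and Fbp2 are next to each other on chromosome 13 in the RefSeq order of protein-coding genes. The gene beyond Fbp1, Aopep, an aminopeptidase gene, differed by 0.07 (SE 0.12, limma adjusted p = 0.72), and the next, Fancc, by 0.12 (adjusted p = 0.55). Both were dim, Aopep at 6.54 to 6.81 and Fancc at 6.42 to 6.74, against background levels of 5.79 to 6.36. Their small differences therefore show little. Ptch1, the gene after Fancc, read 8.75 to 9.11 and differed by -0.00 (adjusted p = 0.99). The probe sequences of the paralogues were not used here, so any shared signal between the 2 probe sets was not tested.

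Pck1, the cytosolic carboxykinase whose transcription is the classic control point of the pathway, had the largest fall of the members that were above background on every array. It read 6.45, 6.20 and 6.21 on cKO 1, 2 and 3, against 8.53, 9.80 and 10.93 on control 1, 2 and 3. The cKO values lay within 0.25 of each other, just above the background level of their arrays, whereas the controls ranged over 2.40. The difference was -3.47 (SE 0.52, 95% interval -4.69 to -2.24, limma adjusted p = 0.0060), or 11.1-fold, and the call held in every alternative. Pck2, the mitochondrial enzyme, did not share the fall. It read 7.97, 7.71 and 7.95 on cKO 1, 2 and 3, against 7.60, 7.53 and 7.53 on control 1, 2 and 3. All 3 cKO values were higher, by a gap of 0.11, and the difference of 0.32 (SE 0.12, 95% interval 0.05 to 0.60) was not called (limma adjusted p = 0.12). It was called without cKO 2 (adjusted p = 0.0498), with array weights (0.011) and when the dimmer 50% of genes were left out (0.0464). Pck1 minus Pck2 within each array was -1.52, -1.51 and -1.74 on the cKO arrays and 0.93, 2.27 and 3.40 on the controls, a difference of -3.79 (exact two-sided permutation p = 0.1, the smallest possible).

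**Figure D1:**
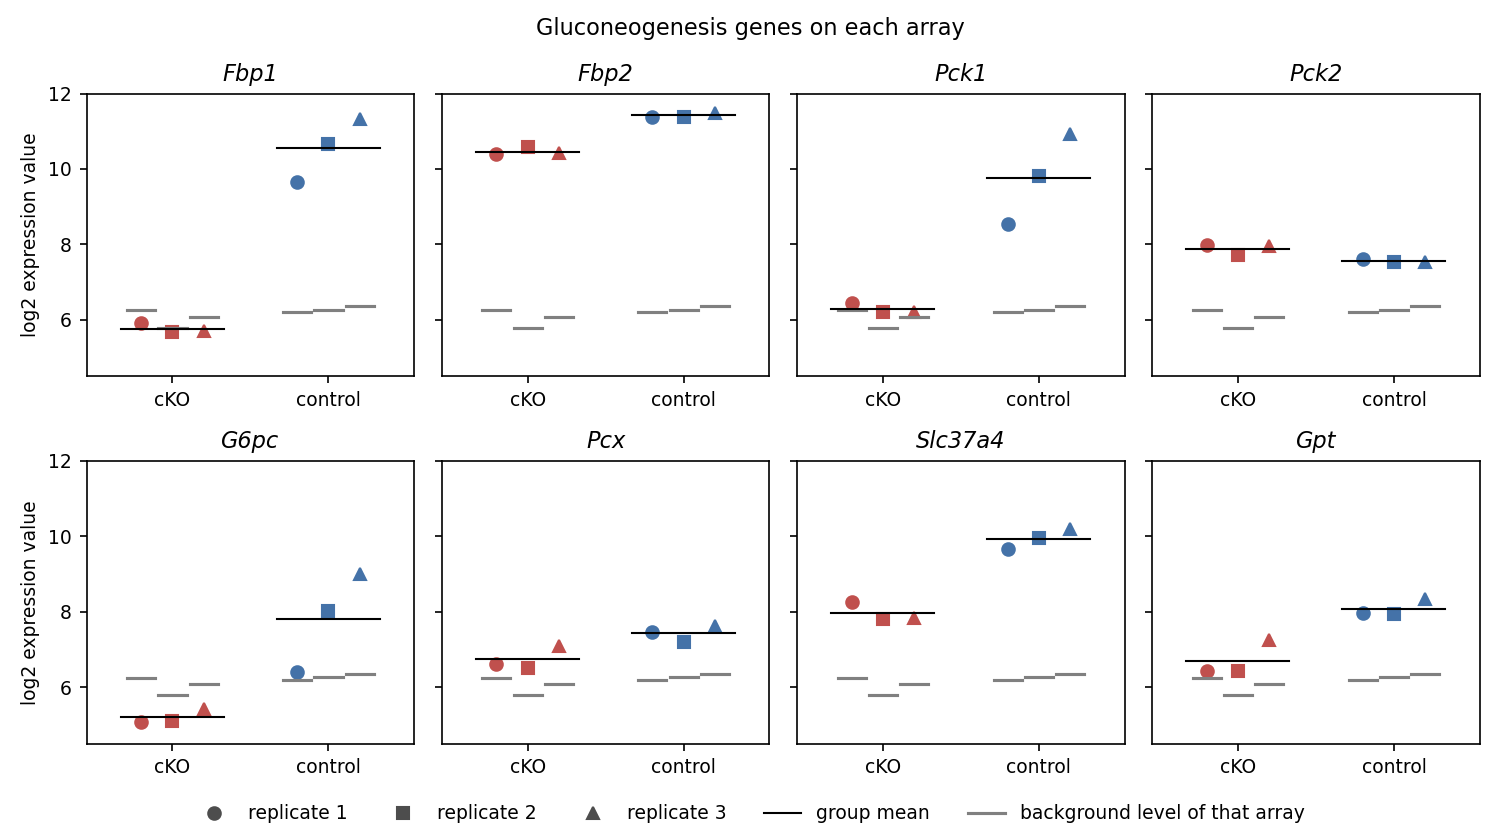
Expression value (log2, vertical axis) of the 8 gluconeogenesis genes on each array, cKO left and control right, with symbols for the replicate number, black lines for group means and grey dashes for the background level of each array. Fbp1 and G6pc lie below the background level on all 3 cKO arrays, and the control arrays of Fbp1, Pck1 and G6pc are spread over 1.67 to 2.59.

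The pair that releases glucose fell together. G6pc, the catalytic subunit, read 5.08, 5.10 and 5.43 on cKO 1, 2 and 3, against 6.40, 8.03 and 8.99 on control 1, 2 and 3. All cKO values were below the background level, and control 1 was only slightly above its own (6.19). The difference was -2.60 (SE 0.57, 95% interval -3.94 to -1.26, limma adjusted p = 0.024). With the cKO arrays at their background level the group means put G6pc at least 3.4-fold lower, a bound that leaves out the spread of the controls. Its call was lost without cKO 1, 2 or 3 or control 2 or 3 (adjusted p = 0.059, 0.056, 0.060, 0.090 and 0.055), with differences of -3.31 to -2.01 over the 6 arrays left out in turn. Slc37a4, the transporter that brings glucose-6-phosphate to the enzyme, read 8.25, 7.81 and 7.84 on cKO 1, 2 and 3, against 9.66, 9.96 and 10.19 on control 1, 2 and 3. Here the groups lay 1.41 apart and both stood well above background. The difference was -1.97 (SE 0.18, 95% interval -2.40 to -1.54, limma adjusted p = 0.0012), or 3.92-fold, and no alternative ended the call. Of the other phosphatase genes, G6pc3, the widely expressed form, differed by 0.06 (95% interval -0.22 to 0.34, limma adjusted p = 0.77), and G6pc2, the islet form, was at background on all 6 arrays.

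Both entry enzymes were called lower. Gpt, alanine aminotransferase, which makes pyruvate from alanine, read 6.42, 6.44 and 7.25 on cKO 1, 2 and 3, against 7.96, 7.94 and 8.34 on control 1, 2 and 3. The groups did not overlap, with cKO 3 the highest of its group. The difference was -1.38 (SE 0.24, limma adjusted p = 0.011), lost without control 3 at an adjusted p of 0.051. Pcx, pyruvate carboxylase, read 6.62, 6.52 and 7.09 on cKO 1, 2 and 3, against 7.45, 7.21 and 7.62 on control 1, 2 and 3. The gap between the groups was only 0.12, cKO 3 again being the highest of its group. The difference of -0.68 (SE 0.19) just passed the threshold (limma adjusted p = 0.0499) and was lost with array weights (-0.35, adjusted p = 0.12) and without cKO 1 or 2 or control 1, 2 or 3 (0.11, 0.10, 0.12, 0.082 and 0.17). The array weights counted cKO 3 most in its group (2.98, against 0.6 and 0.27 for cKO 1 and 2). Without cKO 3, the array with high pancreatic genes, the differences were -1.65 for Gpt (adjusted p = 0.0051) and -0.86 for Pcx (0.029), and the part of pancreatic RNA in the values on cKO 3 was not tested.

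**Figure D2:**
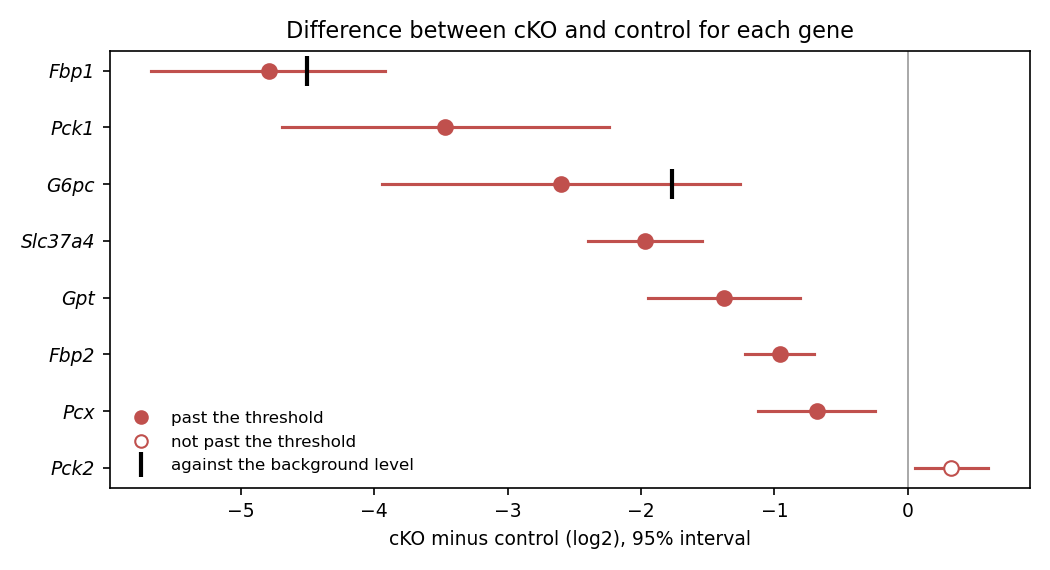
Difference between cKO and control (log2, horizontal axis) with its 95% interval for each of the 8 genes. Filled points passed the threshold, the open point did not, and black ticks give the difference of Fbp1 and G6pc with the cKO arrays set at their background level. The falls of the group means there are at least 22.7-fold and 3.4-fold, bounds that allow for background and not for spread.

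In all, 7 of the 8 genes were called lower in cKO, 0 were called higher by limma (Pck2 had the only positive difference, at an unadjusted p of 0.027) and 1 was not called. Over all 19938 genes, 7.36% were called lower, 6.81% higher and 14.2% in either direction. The median difference was -1.67 over the 8 genes (-1.57 with Fbp1 and G6pc at their bounds) and -0.09 over all genes. The groups did not overlap in any of the 8 genes, 7 of them with cKO lower and 1 with cKO higher, which over all genes was so for 19.3% and 16.0%, and for 35.4% in either direction. Leaving out control 3 left 4 genes called lower (Fbp1, Fbp2, Pck1 and Slc37a4).

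The control samples differed from each other in a part of the pathway. Control 1 was the lowest and control 3 the highest control for Fbp1, Pck1, G6pc and Slc37a4, and the control SD was 0.84, 1.20, 1.31 and 0.27 in that order. Only 28 of all genes (0.14%) had a control SD as large as that of G6pc, 38 (0.191%) as large as that of Pck1 and 111 (0.557%) as large as that of Fbp1. For Fbp2 and Pck2 the controls were much closer (SD 0.06 and 0.04). On the cKO arrays the SD of Fbp1, Pck1 and G6pc was 0.13, 0.14 and 0.20, at or near background. Control 1 was also the lowest and control 3 the highest control for Slc2a2, the basolateral glucose transporter (7.14, 5.78 and 6.83 on cKO 1, 2 and 3, against 8.41, 8.92 and 10.03 on control 1, 2 and 3), and for Lct, the lactase gene (9.15, 7.47 and 8.39 on cKO 1, 2 and 3, against 10.97, 11.45 and 12.07 on control 1, 2 and 3). Litter and exact stage of each embryo were not given in the sources used here. In the cKO group, Cdh1 minus its control mean was -0.24, -1.56 and -1.03 on cKO 1, 2 and 3. Fbp1 was at or below background on all 3, so its values there have no order to set beside those of Cdh1. Of the members above background there, Slc37a4 (-1.69, -2.13 and -2.1) and Pck1 (-3.3, -3.55 and -3.54) were least lowered on cKO 1, as Cdh1 was. Gpt and Pcx were least lowered on cKO 3 and Fbp2 on cKO 2, and Pck2 was not lowered. A relation of these values to Cdh1 was not tested.

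**Figure D3:**
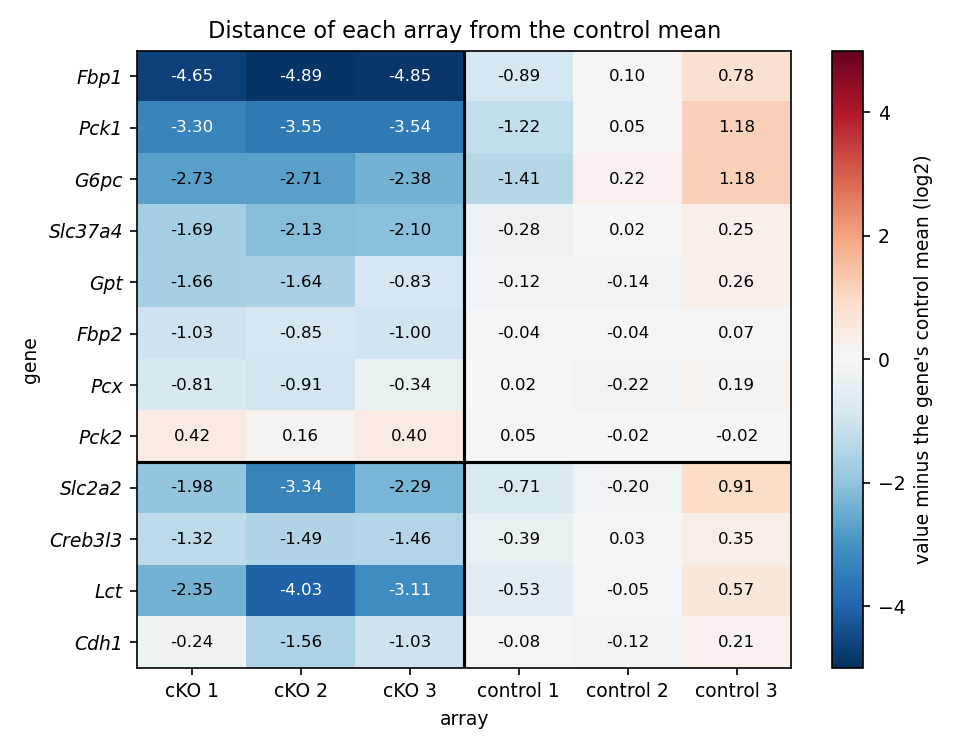
Value of each gene minus its own control mean (log2, colour and printed number) on the 3 cKO and 3 control arrays, with the 8 gluconeogenesis genes above the line and Slc2a2, Creb3l3, Lct and Cdh1 below it. Fbp1 lies between -4.89 and -4.65 on the cKO arrays, where it was at or below background, while control 1 and control 3 lie on opposite sides of that mean for Fbp1, Pck1 and G6pc.

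The samples were whole intestine, so fewer cells of a type and less RNA per cell cannot be told apart. Over all genes, 7.36% were called lower in cKO and 6.81% higher. Each count of called markers in this paragraph is to be read beside these shares. Of 9 general epithelial markers, 2 were lower in cKO (Cdx1 at -0.60 and Tff3 at -0.65) and 1 higher (Krt20 at 1.61). These calls were lost in 4, 4 and 3 of the 15 alternatives, in that order. At an unadjusted p below 0.05, 3 markers were lower and 1 higher. The share of all genes at that cut was not determined, so such counts, here and in the lists below, have no background beside them. The log2 of the summed level of the 9 markers was 14.21 to 14.28 in cKO and 14.36 to 14.55 in control. Lgals4, the brightest of them, differed by -0.31 (95% interval -0.56 to -0.06, limma adjusted p = 0.098), with groups that did not overlap. Epcam, an epithelial surface protein, differed by -0.10 (95% interval -0.36 to 0.16, limma adjusted p = 0.59). Of 14 mature enterocyte markers, 9 were lower and 0 higher by limma (13 and 0 at an unadjusted p below 0.05). Their differences ran from -3.16 for Lct to -0.08. Apoa4 and Apoa1, the brightest, differed by -0.67 (limma adjusted p = 0.024) and -0.36 (0.075, not called). The call of Apoa4 was lost with cyclic loess (0.073) and without control 2 or 3 (0.098 and 0.093). The groups did not overlap, with cKO lower, in 13 of the 14 enterocyte markers, which over all genes was so for 19.3%. The log2 of their summed level was 14.79 to 14.89 in cKO and 15.61 to 16.06 in control, with control 1 the lowest control and control 3 the highest, and the part of these cells in the falls above was not tested. Smooth muscle markers (6 of 6 higher, summed level 14.58 to 14.68 in cKO and 13.72 to 13.99 in control) and macrophage markers (6 of 7 higher, 11.58 to 11.96 in cKO and 10.88 to 10.99 in control) were higher, and their part in the falls was not tested either. The calls of Acta2 and Myh11 (smooth muscle) and of Mrc1 (macrophage) were lost in 5, 3 and 1 of the 15 alternatives. Other tissues that use these genes were checked as well. Of 11 hepatocyte markers, 7 were at or below background on every array, among them Alb, the albumin gene, at 5.52, 5.12 and 4.84 on the cKO arrays and 5.0, 4.97 and 5.05 on the controls. The fibrinogen genes Fga and Fgb were lower in cKO (-1.71 and -1.95), with control 1 the highest control and 2 of 3 cKO arrays at background. Both calls were lost without cKO 1 or 3 or control 2 (0.0547, 0.078 and 0.070 for Fga, 0.074, 0.10 and 0.083 for Fgb). The summed level of the hepatocyte list was 9.07 to 9.40 in cKO and 9.58 to 10.14 in control. Of 7 kidney tubule markers 0 were called by limma (1 at an unadjusted p below 0.05), and of 5 adipocyte markers likewise 0 (1 at an unadjusted p below 0.05). Among 8 skeletal muscle markers, the tissue in which Fbp2 is best known, 1 was higher (Ckm, at 0.79, adjusted p = 0.047) and 0 were lower by limma (1 at an unadjusted p below 0.05). The call of Ckm was lost without cKO 1 or 3 or control 1, 2 or 3 (0.091 to 0.16). Of 4 pancreatic acinar markers, 0 were called by limma and 0 had an unadjusted p below 0.05. Their summed level was 8.16, 7.97 and 13.13 on cKO 1, 2 and 3, against 8.31, 8.33 and 8.61 on control 1, 2 and 3, so that cKO 3 alone was high.

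Around the 8 genes, 81 measured genes in 6 lists were examined, of which 20 were called lower and 9 higher. Over all genes, 7.36% were called lower and 6.81% higher, the shares beside which each list count below is to be read. In the list of transcriptional regulators, 9 of 21 were lower and 0 higher by limma (10 and 0 at an unadjusted p below 0.05), with a median of -0.38. Cebpa, a C/EBP factor that acts on hepatic gluconeogenic genes, fell by 1.51 (SE 0.12) and Creb3l3, encoding a membrane-bound factor of liver and intestine, fell by 1.42 (SE 0.19). The nuclear receptor genes Hnf4g, Hnf4a, Ppara and Esrra fell by 1.52, 0.88, 1.09 and 1.03, and the intestinal factor genes Gata6 and Cdx2 by 1.09 and 0.79. These 8 genes had limma adjusted p at or below 0.018, and only the call of Hnf4a was lost, without cKO 3 (0.065). Ppargc1a, the coactivator PGC-1alpha, differed by -0.95 (adjusted p = 0.042), with all cKO arrays at background (at least 1.58-fold lower), and was not called without cKO 2 or 3 or control 1, 2 or 3 (0.095, 0.13, 0.066, 0.11 and 0.15). The factors through which cAMP, insulin and glucocorticoid act on the pathway, Creb1, Crtc2, Foxo1 and Nr3c1, differed by 0.00, 0.10, 0.09 and -0.25, with adjusted p of 0.26 or more. Gata4 differed by -0.65 (adjusted p = 0.11), and Onecut1 was at background on all 6 arrays.

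**Figure D4:**
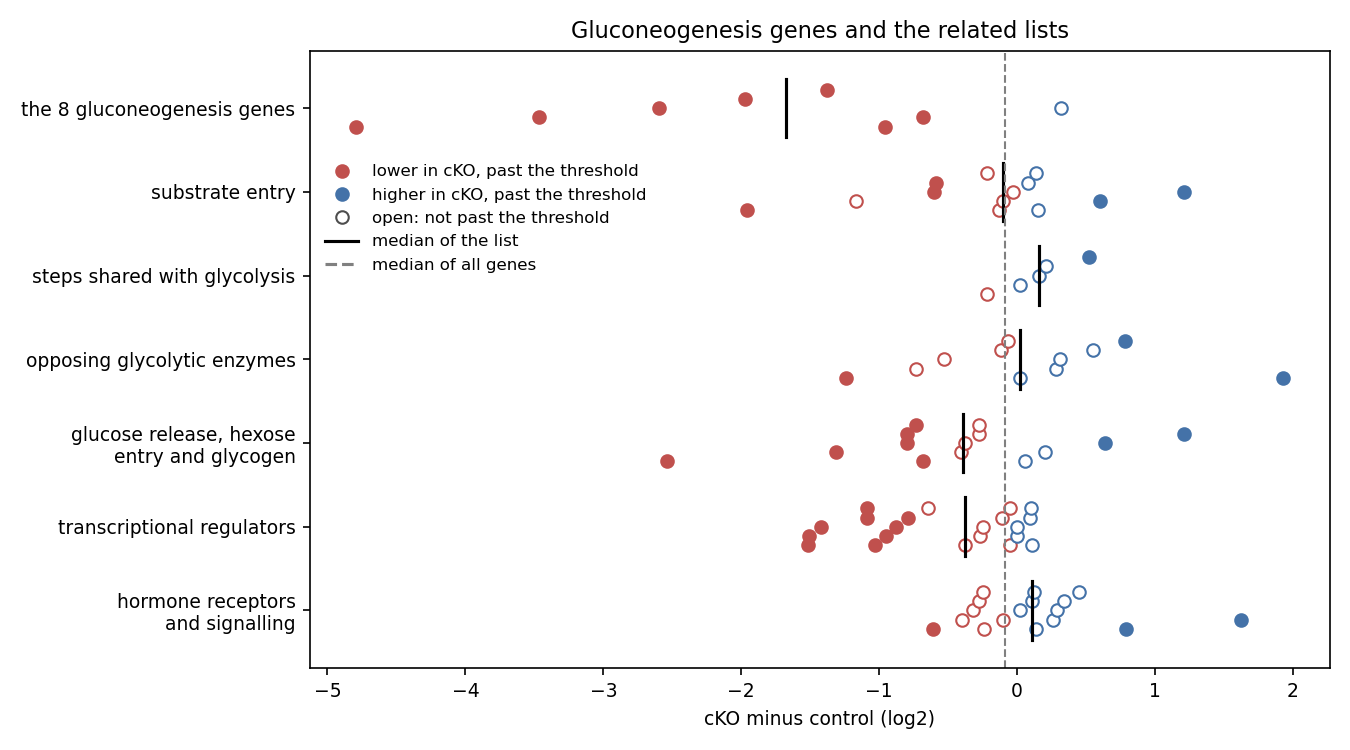
Difference between cKO and control (log2, horizontal axis) of the 8 gluconeogenesis genes and of 81 genes in 6 related lists, 1 row per list. Filled points passed the threshold, short black lines are list medians and the dashed line is the median of all genes (-0.09). The row of transcriptional regulators has 9 filled points on the lower side and 0 on the higher side.

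Of 11 glycolytic genes that run opposite to gluconeogenesis, 1 was lower, 2 were higher and 8 were not called. Hk2, an inducible hexokinase, read 8.83, 8.55 and 8.48 on cKO 1, 2 and 3, against 6.70, 6.71 and 6.65 on control 1, 2 and 3, a difference of 1.93 (SE 0.13, limma adjusted p = 0.00059). The groups did not overlap, and the controls lay within 0.06 of each other. Pkm, the pyruvate kinase gene of most tissues, rose by 0.78 (SE 0.11, adjusted p = 0.0053), whereas Pklr, the form of liver and gut epithelium, fell by 1.24 (SE 0.12, adjusted p = 0.0012). These 3 calls held in every alternative. Pfkfb2 and Pfkfb4, which set the level of an activator of glycolysis, differed by -0.53 and -0.73 (adjusted p = 0.056 and 0.070). Each was called lower in 6 of the 15 alternatives, among them array weights (0.0044 and 0.010) and a variance trend (0.030 and 0.038). Under either of these settings, 3 genes of the list were lower and 2 higher. Hk1, another hexokinase gene, differed by -0.07 (limma adjusted p = 0.71) on its brightest probe set. With the mean over its probe sets Hk1 was called higher (adjusted p = 0.041), making 3 higher genes in the list.

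Of 5 measured genes for steps shared with glycolysis, Aldoa, the muscle-type aldolase, was higher by 0.52 (limma adjusted p = 0.024) and 0 were lower, also at an unadjusted p below 0.05, with Pgk1 and Pgam1 at 0.21 and 0.16 (adjusted p = 0.33 and 0.44). The call of Aldoa was lost without cKO 1 or 3 or control 1, 2 or 3 (0.0527, 0.072, 0.068, 0.10 and 0.087).

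In the list of substrate entry, 3 of 13 genes were lower and 2 higher. Prodh, proline dehydrogenase, which starts the breakdown of proline, fell by 1.96 (SE 0.16, limma adjusted p = 0.00078), and Gpd2, the mitochondrial glycerophosphate dehydrogenase, rose by 1.21 (SE 0.18, adjusted p = 0.0056), both in every alternative. Its cytosolic counterpart Gpd1 differed by -1.17 (SE 0.33, adjusted p = 0.058). Gpd1 was called lower in 7 of the 15 alternatives, among them median centring (0.031) and a variance trend (0.027). Mdh1, cytosolic malate dehydrogenase, and Mpc1, a subunit of the mitochondrial pyruvate carrier, differed by -0.60 and -0.59, and Ldhb, the lactate dehydrogenase form of oxidative tissue, by 0.60. The calls of these 3 genes did not hold in several alternatives: Mdh1 (adjusted p = 0.030) was lost without cKO 1, 2 or 3 or control 2 or 3 (0.0505 to 0.091) and with quantile normalization (0.056) or cyclic loess (0.063), Mpc1 (0.032) with median centring (0.058) and without cKO 1 or 3 or control 1, 2 or 3 (0.062 to 0.13) and Ldhb (0.039) without cKO 1 or 3 or control 1, 2 or 3 (0.070 to 0.14). Gpt2, the mitochondrial alanine aminotransferase, differed by -0.22 (95% interval -0.58 to 0.14, adjusted p = 0.40).

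Of 14 genes for glucose release, hexose entry and glycogen, 6 were lower and 2 higher. Slc2a2 fell by 2.54 (SE 0.48, limma adjusted p = 0.013) and Slc5a1, the apical glucose transporter, by 1.31 (SE 0.25, adjusted p = 0.013), the second lost without control 2 (0.0502). Slc2a1, the transporter gene of fetal and proliferating tissue, rose by 1.21 (SE 0.20, adjusted p = 0.0079). Pgm1, phosphoglucomutase, fell by 0.80, Gaa, the lysosomal glucosidase of glycogen, by 0.73, Khk, ketohexokinase, by 0.80 and Galt, of galactose entry, by 0.68, while Pygl, liver glycogen phosphorylase, rose by 0.64, with adjusted p of 0.011 to 0.0475. The calls of these 5 genes were each lost without control 2 (Pgm1 0.057, Khk 0.15, Galt 0.13 and Pygl 0.10) or, for Gaa, without control 1, control 3 or cKO 3 (0.058, 0.071 and 0.067). Khk and Galt were also lost without cKO 1, 2 or 3 or control 3 (0.068 to 0.13) and Pygl without cKO 1 or control 3 (0.052 and 0.075). Tkfc differed by -0.28 (adjusted p = 0.18), and Gys2 was at background on all 6 arrays.

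Among 17 genes of hormone receptors and signalling, 1 was lower and 2 were higher, beside 7.36% and 6.81% of all genes. Hsd11b1, which regenerates active glucocorticoid, read 6.87, 7.40 and 7.32 on cKO 1, 2 and 3, against 5.52, 5.72 and 5.50 on control 1, 2 and 3, all controls being at background. It was at least 1.9-fold higher in cKO (limma adjusted p = 0.0016). Sik1, a kinase that restrains CREB coactivators, rose by 0.79 (SE 0.10, adjusted p = 0.0036). The insulin receptor gene Insr differed by -0.61 (adjusted p = 0.039), a call lost with the mean over its probe sets (0.064) and without cKO 2 or 3 or control 1, 2 or 3 (0.081 to 0.14). Prkaa2 and Irs1 differed by 0.45 and 0.34 (adjusted p = 0.058 and 0.13), and were called higher in 6 and 1 of their 15 alternatives. Gcgr, the glucagon receptor gene, differed by -0.40 (adjusted p = 0.38), with 2 cKO and 2 control arrays at background.

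The genes whose 6 array values, each taken from the gene's own control mean, lay nearest to those of Fbp1 were Acot3, Pck1, Sycp3, Sdr16c5 and Slc34a3, at a root mean square distance of 0.48, 0.96, 0.97, 1.01 and 1.02 on the log2 scale. Acot3 (an acyl-CoA thioesterase gene) read 5.01, 4.42 and 3.81 on cKO 1, 2 and 3, against 8.24, 8.90 and 9.16 on control 1, 2 and 3. Nearest to Pck1 were Sectm1b, Slc34a3, Ace, Abcb11 and Mcoln3, at 0.47, 0.49, 0.50, 0.54 and 0.59. Abcb11, the bile salt export pump gene, read 5.34, 4.41 and 4.97 on the cKO arrays and 6.19, 7.83 and 9.10 on control 1, 2 and 3. It thus shared the low control 1 and high control 3 of Pck1, but its control 1 was at the background level of that array. Among the 8 genes, Fbp2 and Pcx were the nearest pair (0.30). On all 3 cKO arrays Acot3, Sycp3, Sdr16c5, Sectm1b and Abcb11 were at background, as Fbp1 was, and Slc34a3 was on 2. The cKO part of the distances of these genes, and of all distances from Fbp1, rests on values that were not all above background. Pck1, Ace and Mcoln3 were above background on every cKO array. The order of the genes is not established. These distances rest on 6 arrays of 2 groups, and the size of the group difference enters them.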

How the data were processed

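RNA of 3 cKO and 3 control samples was measured on Affymetrix Mouse Gene 1.0 arrays. The deposited table holds 35512 probe sets with values from 0 to 14.07, made by the authors with dChip per the series design text. The dChip version, background correction and normalization were not given in the sources used here. The values were read as log2 from their range, since the labels name no scale, and were used as deposited. Arrays carry no read depth, and their number limits the precision. Of the probe sets, 21789 had 1 gene symbol, 1621 several and 12102 none listed. Through their gene identifiers, 21698 received current symbols (RefSeq table, GRCm38.p6), and the brightest probe set per gene left 19938 genes. The authors' genome build was not given in the sources used here, so coordinates are printed only for RefSeq promoter windows, which were found for 7 of the 8 genes.

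Each gene was tested with limma 3.58.1 in R 4.3.3 (lmFit, then eBayes without trend) on all 6 arrays, two-sided and with no covariate, and with Benjamini-Hochberg adjustment over all genes. On simulated data with 19938 genes, the fit recovered 87% of genes changed by 2 and 44% of genes changed by 1 on the log2 scale. There, 100 genes were changed by each size, with independent normal noise for each gene and array. Far fewer genes changed than were called here, and no array had deviations shared across genes. The recovered shares therefore do not give the power in these data. Single values were compared with exact permutation tests. Same-numbered arrays did not deviate together (correlations of -0.08, 0.13 and 0.14), so the numbers were not taken as pairs. The members, lists, background level and motifs were chosen with earlier results of these data known. Named genes are Cdh1, the 8 members, the called and next 2 genes of each pathway list, up to 2 of each marker list and the 5 genes nearest to Fbp1 and to Pck1. Other genes named (Ctrb1, Aopep, Fancc, Ptch1, G6pc2, G6pc3, Hk1, Creb1, Crtc2, Foxo1, Nr3c1, Gcgr, Cdx1, Tff3, Krt20, Fga, Fgb, Ckm, Myh11, Mrc1, Alb and Lct) were chosen after their values were seen. Of the listed symbols, 21 matched no gene with a value and are left out. Alternatives were quantile normalization, median centring, cyclic loess, 2 filters on dim genes, the mean over probe sets, array weights, the replicate block, a variance trend and leaving out each array.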

Additional observations from a re-analysis of the deposited data

How the results depend on the processing

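Fbp1, Fbp2, Pck1 and Slc37a4 were called lower in all 15 alternatives. Across the alternatives, G6pc, Gpt, Pcx and Pck2 changed call in 15 of 59 fits, with no change of direction. Of the 8 genes, 6 or 7 were called lower under the 9 alternatives that keep all arrays (6 with array weights and without the dimmer 50% of genes, where G6pc was not tested), and 4 to 6 when 1 array was left out. Pck2 alone was called higher, making 1 gene, without the dimmer 50% of genes or under array weights, and leaving out 1 array gave 0 to 1 called higher. The 2825 genes called over the whole table became 5834 with array weights, and 1226 to 2713 with 1 array left out (1226 without control 2, 1505 without control 3 and 1517 without cKO 3). The array weights were largest for cKO 3 (2.98), the array with high pancreatic genes, and for control 2 (2.73). The 29 called genes of the pathway lists became 18 to 26 with 1 array left out, and 27 to 36 otherwise. With the replicate number as a block, 2212 genes were called and 7 of the 8 members were lower, and the numbers are not known to mark shared litters or days. Aldoa, Ppargc1a, Insr, Mpc1 and Ckm were not called with this block (adjusted p = 0.06, 0.059, 0.066, 0.0545 and 0.0519). The scalings moved the median of all genes from -0.09 to between -0.07 and -0.01. Signal over background limits Fbp1 and G6pc in cKO, whose falls are lower bounds as to background but not as to spread, and Pcx and Pck2 lie near the threshold.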
